A study of Mus musculus and Rattus norvegicus with 79 samples.

Results

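The 36 genes described here encode proteins of the endoplasmic reticulum (ER): 11 chaperones of the HSP70 and HSP90 class with their co-chaperones, 2 lectin chaperones, 5 disulfide isomerases, 8 components of ER-associated degradation (ERAD), 3 sensors and transcription factors of ER stress, 5 parts of the channel through which proteins enter the ER, and 2 coat proteins of the vesicles that leave it. They were taken by symbol from a list of named genes, which was chosen with earlier results of these data known. All 36 were found among the 24790 genes matched in both mouse count tables. Liver RNA was sequenced from mice kept in 12 h of light and 12 h of dark whose feeding was restricted to the night, to follow the response of the liver to food and the part of the glucocorticoid receptor (GR, encoded by Nr3c1) in it. The C57BL/6 experiment comprised 27 polyA libraries of mice that received no virus: unfed livers at ZT10, and fed and unfed livers side by side at ZT13, ZT14, ZT18 and ZT22 (Zeitgeber time, hours after lights on; 3 libraries a group). The second experiment comprised 36 rRNA-depleted libraries of Nr3c1fl/fl mice, all of which carried the floxed alleles and had received an adeno-associated virus 10 days earlier. The virus was AAV-tbg-CRE or, as control, AAV-tbg-GFP, with the hepatocyte promoter tbg, so that the other cell types of the liver keep Nr3c1. For each virus 3 livers were unfed at ZT10, 3 unfed at ZT12, and 3 fed at each of ZT13, ZT14, ZT18 and ZT22, and food and hour change together between ZT12 and ZT13.

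Proteins made for secretion enter the ER through the SEC61 channel and fold there with the help of BiP (Hspa5), GRP94 (Hsp90b1), the lectins calnexin and calreticulin, and the disulfide isomerases, while chains that fail to fold are pulled back to the cytosol and degraded by ERAD. When unfolded chains build up, the sensors IRE1 (Ern1), ATF6 and PERK start the unfolded protein response, in which IRE1 splices Xbp1 mRNA and the XBP1 and cleaved ATF6 proteins raise transcription of chaperone and ERAD genes. Hepatocytes secrete most of the proteins of blood plasma, and the unfolded protein response of the liver is known to follow meals.

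XBP1 and ATF6 act through the ER stress element, CCAAT, then 9 bases, then CCACG, which was searched on both strands of a window from 250 bases before to 50 bases after each annotated start (RefSeq, build GRCm38.p6). Of 29 members with a window in the table, 9 held it (31.0%), against 37 of all 27025 genes (0.137%) and 22 of 11660 genes tested for expression (0.189%). XBP1 and ATF6 raise chaperone and ERAD genes through this element, so its share among the members is no independent finding and was not tested. The shorter CCACG, which the element contains, was in 25 of the 29 (86.2%) in 49.9% of genes tested for expression and in 35.5% of all genes. The elements are shown because they are a sequence feature that 9 members share, each read 5′ to 3′ on the strand of its gene with 5 flanking bases on either side. Capitals mark the CCAAT and CCACG parts, or CGTGG and ATTGG where the element runs on the opposite strand.
Hspa5: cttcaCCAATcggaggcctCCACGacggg
Calr: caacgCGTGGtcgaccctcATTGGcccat
Derl3: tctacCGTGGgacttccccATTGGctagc
Hsp90b1: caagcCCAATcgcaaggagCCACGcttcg
Hsp90b1: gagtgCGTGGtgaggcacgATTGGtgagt
Canx: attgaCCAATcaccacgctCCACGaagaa
Pdia6: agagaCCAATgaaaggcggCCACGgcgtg
Dnajc3: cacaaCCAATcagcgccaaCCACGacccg
Creld2: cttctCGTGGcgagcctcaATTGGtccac
Syvn1: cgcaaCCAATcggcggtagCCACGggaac
The stretches lie, in the same order, for Hspa5 at chr2:34772020-34772048 (plus strand), Calr at chr8:84847070-84847098 (minus strand), Derl3 at chr10:75893237-75893265 (plus strand), Hsp90b1 at chr10:86705633-86705661 (minus strand), Hsp90b1 at chr10:86705528-86705556 (minus strand), Canx at chr11:50325795-50325823 (minus strand), Pdia6 at chr12:17266486-17266514 (plus strand), Dnajc3 at chr14:118937822-118937850 (plus strand), Creld2 at chr15:88819515-88819543 (plus strand), and Syvn1 at chr19:6046527-6046555 (plus strand). In Hsp90b1, which held 2 elements in opposite orientations, they begin 212 and 107 bases before the start, and in the other 8 genes the element begins between 44 (Syvn1) and 162 (Calr) bases before it. The element with its spacing of 9 bases was not in the windows of Sdf2l1 and Herpud1. The Herpud1 window does hold ATTGG followed closely by CCACG, an arrangement that was not counted. No window was given for 7 members, Manf, Hyou1, Hspa13, Sil1, Derl1, Atf6 and Sec61a1. A match, or none, describes these letters in this window and says nothing of binding.

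The libraries held 23870218 to 91765919 counts in C57BL/6 livers and 34635202 to 78763549 in Nr3c1fl/fl livers. Levels are given as CPM, counts-per-million of the summed counts of the genes tested, after TMM scaling (edgeR's correction for library composition). They are compared within an experiment and between libraries, not between genes. Nr3c1 checked the labels: it was at 147 to 323 CPM in the 18 GFP libraries and at 102 to 201 CPM in the 18 CRE libraries, lower in CRE livers at every time and by 0.63 on the log2 scale on average (adjusted p = 1.85e-09). The 8 hepatocyte markers matched summed to 71100 to 116000 CPM in C57BL/6 and 38100 to 68700 CPM in Nr3c1fl/fl libraries. A pair of C57BL/6 libraries stood apart by markers of another tissue: pancreatic acinar markers summed to 517 CPM in unfed ZT18 replicate 3 and to 13.1 to 33.8 CPM in the other 26 libraries, and bile duct markers to 104 CPM in fed ZT14 replicate 1. The ribosomal RNA precursor row NR_046233 took over 20% of the counts in 6 Nr3c1fl/fl libraries, all 3 of GFP ZT10, CRE ZT10 replicate 1 and GFP ZT12 replicates 1 and 2. The labels call the libraries replicates and do not say that each is 1 animal, so p-values measure the spread between these libraries. In whole liver, a change in the number of cells of a type cannot be told apart from a change in RNA per cell.

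Fed C57BL/6 livers held more mRNA of most of these genes than unfed livers of the same hour. Averaged over the 4 hours, 28 of the 36 members rose and 2 fell at an adjusted p under 0.05 (edgeR quasi-likelihood test, Benjamini-Hochberg over all 14744 genes tested), while 35.4% of all genes tested passed in either direction, 17.5% upward and 17.9% downward. The median change of the members was 0.40 on the log2 scale, and that of all genes tested was 0.01. All 36 passed the filter on low counts. Every one of the 11 chaperones and co-chaperones had a positive change and 10 rose, as did both lectin chaperones, all 5 disulfide isomerases, all 5 translocation genes, 4 of 8 ERAD genes, Xbp1 and Sec23b. Herpud1 and Atf6 fell, and Dnajb9, Derl1, Derl3, Os9, Ern1 and Sec24d did not pass. By hour, no member passed at ZT13 (1.1% of all genes; 11 members had an unadjusted p under 0.05, and DESeq2 called 4), and 13 rose at ZT14 (5.64% of all genes passed, 2.26% upward), a count of 5 to 10 when 1 ZT14 library was left out (5 without unfed replicate 1 or 2, 8 without fed replicate 1). At ZT18 29 members rose and 2 fell (26.4%, 13.3% upward and 13.1% downward), and at ZT22 21 rose and 1 fell (20.2%, 10.5% upward and 9.77% downward). The plot of changes by hour shows the 36 genes by role.

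**Figure D1:**
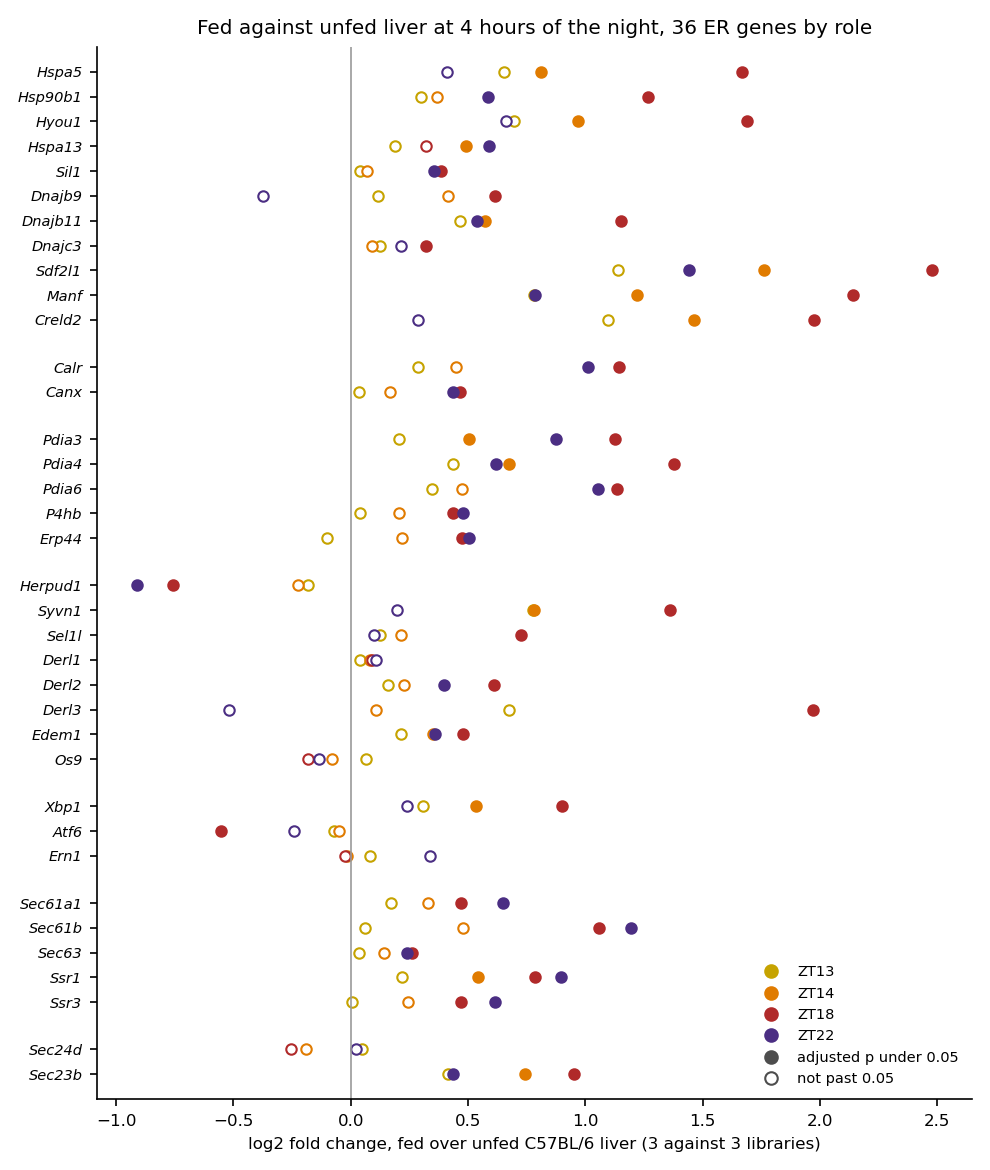
Log2 fold change of fed over unfed C57BL/6 liver for the 36 genes (rows, grouped by role from chaperones at the top to coat proteins at the bottom) at 4 hours (colours), 3 against 3 libraries each, with filled points past an adjusted p of 0.05. The ZT18 points lie farthest right for most chaperones, at 2.48 for Sdf2l1, while the filled points of Herpud1 and Atf6 lie left of 0.

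The steepest change was that of Sdf2l1, which encodes a partner of the BiP co-chaperones ERdj3 and ERdj6. Its level was 18.1, 10.3 and 6.46 CPM in the unfed and 18.3, 37.7 and 20.5 CPM in the fed libraries at ZT13, and 5.54, 8.59 and 9.28 against 25.2, 27.8 and 26.8 CPM at ZT14. It was 14.3, 16.1 and 6.55 CPM unfed against 66.4, 70.3 and 68.5 CPM fed at ZT18, and 18.7, 13.5 and 17.5 against 45.2, 46.7 and 43.1 CPM at ZT22. Each fed library thus stood above each unfed library of its hour, though by a narrow margin at ZT13, where unfed replicate 1 was close to the lowest fed library. The change was 1.71 ± 0.15 over the 4 hours (log2 fold change ± SE, adjusted p = 2.44e-09) and 2.48 ± 0.30 at ZT18. In unfed livers at ZT10, before the dark phase, its level was 10.1, 8.09 and 9.97 CPM, within the range of the unfed livers of the night.

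Manf, which encodes a small secreted protein that binds BiP, and Creld2, which encodes a protein with isomerase activity that is induced by ER stress, came next. Manf was at 103, 71.4 and 43.3 CPM unfed and 110.2, 155 and 109 CPM fed at ZT13, and at 57.2, 52.2 and 68.6 against 139, 145 and 131 CPM at ZT14. It was at 57.1, 51.2 and 28.2 against 199.5, 193 and 208 CPM at ZT18 and at 60.5, 60.4 and 77.3 against 109, 117 and 116 CPM at ZT22. Fed and unfed libraries of Manf did not overlap at any hour, and the change was 1.23 ± 0.11 (adjusted p = 4.23e-09). Creld2 was at 100.1, 50.7 and 23.9 CPM unfed and 117, 169 and 87.7 CPM fed at ZT13, and at 37.2, 42.0 and 42.8 against 118, 103 and 116 CPM at ZT14. At ZT18 it was at 45.8, 46.2 and 26.6 against 192, 138 and 137 CPM, and at ZT22 at 31.6, 33.3 and 73.2 against 50.1, 70.4 and 47.7 CPM. The groups of Creld2 overlapped at ZT13 and ZT22 and were apart at ZT14 and ZT18. Its change was 1.21 ± 0.17 over the 4 hours (adjusted p = 5.13e-06), 1.98 ± 0.35 at ZT18 and 0.29 ± 0.34 at ZT22, where it did not pass (adjusted p = 0.615). At ZT10 the unfed livers held 15.2, 12.3 and 12.9 CPM of Creld2, below every library of the night.

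Hyou1 and Hspa5 encode HSP70 proteins of the ER: GRP170, which exchanges the nucleotide of BiP, and BiP itself. Hyou1 was at 264, 161 and 109.7 CPM unfed and 258, 352 and 257 CPM fed at ZT13, at 131, 143 and 141 against 272, 275 and 264 CPM at ZT14, and at 156, 169 and 81.9 against 449, 386 and 478 CPM at ZT18. At ZT22 it was at 180.0, 139 and 213 against 272, 303 and 266 CPM, and at ZT10 at 89.2, 58.7 and 74.0 CPM. Its groups overlapped at ZT13 alone, where unfed replicate 1 lay above 2 fed libraries, and the change was 1.01 ± 0.12 (adjusted p = 3.76e-07). Hspa5 was at 966, 684 and 506 CPM unfed and 989, 1400 and 1006 CPM fed at ZT13, and at 665, 675 and 687 against 1194, 1169 and 1199 CPM at ZT14. It was at 691, 649 and 394 against 1846, 1670 and 2004 CPM at ZT18, at 716, 608 and 936 against 949, 1053 and 1002 CPM at ZT22, and at 415, 361 and 379 CPM unfed at ZT10. The fed libraries of Hspa5 were above the unfed ones at every hour, by the smallest margin at ZT22, where unfed replicate 3 came close to fed replicate 1. Its change was 0.89 ± 0.10 over the 4 hours (adjusted p = 8.86e-08), 1.67 ± 0.20 at ZT18 and 0.41 ± 0.19 at ZT22 (adjusted p = 0.138). The Hspa5 gene shares 1921 bases with Rabepk, and the sources used here do not state whether reads were counted by strand.

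**Figure D2:**
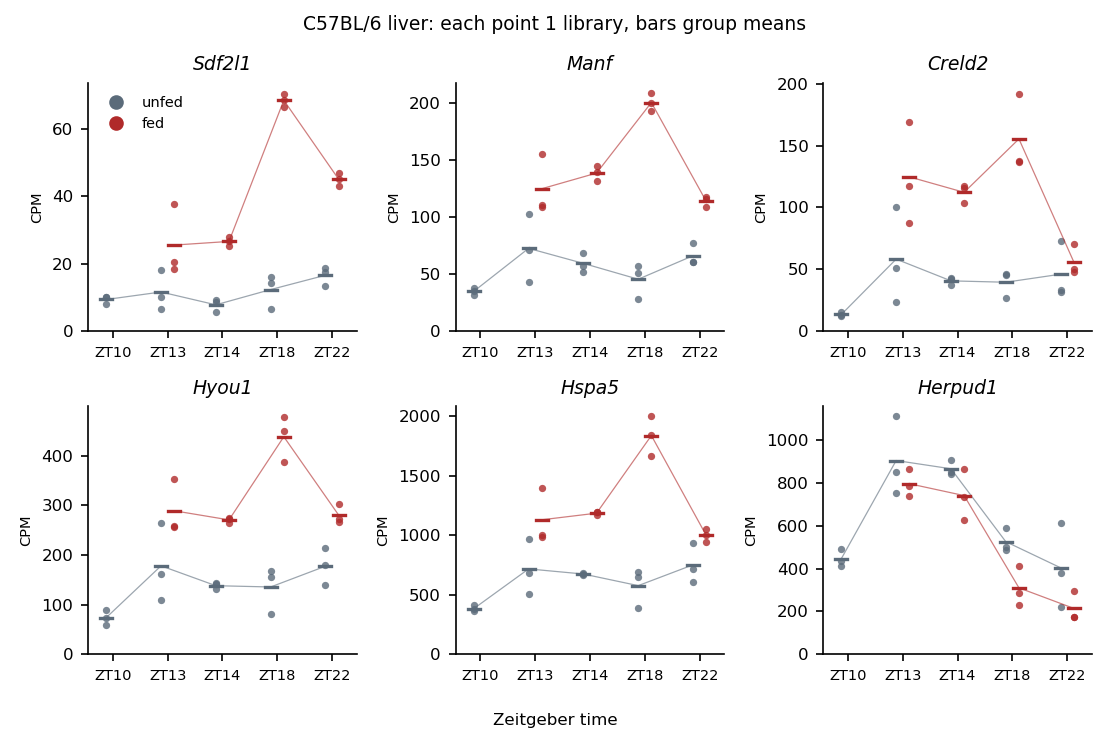
CPM in each C57BL/6 library (points) with group means (bars, joined by thin lines) for 6 genes, unfed in grey and fed in red, against Zeitgeber time. At ZT18 the fed points of the 5 chaperone genes lie above the unfed points of that hour, while those of Herpud1 lie below.

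Unfed replicate 1 at ZT13 and unfed replicate 3 at ZT18 stood at the edge of their groups for many members. The first was the highest of its 3 libraries for 24 of the 36 members, and the second was the lowest of its 3 for 30. Without unfed ZT13 replicate 1, 9 members passed at ZT13 in place of 0. Without unfed ZT18 replicate 3, the library with the pancreatic markers, and fed ZT14 replicate 1, the change of Hspa5 at ZT18 was 1.47 and that of Sdf2l1 2.18, and both still passed, while the calls of Derl3 (1.37, adjusted p = 0.14), Dnajc3 (0.22, 0.115), Herpud1 (-0.66, 0.0996) and Sec63 (0.23, 0.0869) at ZT18 were lost.

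The other chaperones and co-chaperones rose less. Hsp90b1, which encodes GRP94, rose by 0.63 ± 0.06, Dnajb11, which encodes the co-chaperone ERdj3, by 0.68 ± 0.08, and Hspa13 by 0.40 ± 0.07. Sil1, which encodes another nucleotide exchange factor of BiP, rose by 0.21 ± 0.04, and Dnajc3, which encodes the co-chaperone ERdj6, by 0.19 ± 0.05. Dnajb9, which encodes ERdj4, a co-chaperone that represses IRE1, was at 0.19 ± 0.10 (adjusted p = 0.129): it rose at ZT18 (0.61) and was at -0.38 at ZT22 (adjusted p = 0.187). The call of Dnajb9 at ZT18 was lost without unfed replicate 1 or 2 or fed replicate 3 of that hour (adjusted p from 0.0615 to 0.138).

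The folding enzymes that act on glycoproteins and disulfides rose at ZT18 and ZT22. Calr, which encodes calreticulin, rose by 0.72 ± 0.08 over the 4 hours, and Canx, which encodes calnexin, by 0.28 ± 0.05. Calr was at 518, 563 and 329 CPM unfed against 1069, 1007 and 1038 CPM fed at ZT18 and at 534, 439 and 468 against 982, 939 and 985 CPM at ZT22. Neither lectin chaperone passed at ZT13 or ZT14, and both passed at ZT18 and ZT22. Of the isomerases, Pdia4 rose by 0.78 ± 0.08, Pdia6 by 0.75 ± 0.09 and Pdia3, which works with the lectins, by 0.68 ± 0.07. P4hb, which encodes the founding isomerase PDI and a subunit of prolyl hydroxylase, rose by 0.29 ± 0.05, and Erp44, which encodes a retention factor for secreted proteins, by 0.27 ± 0.05. P4hb was at 1169, 1270 and 1095 CPM unfed against 1693, 1589 and 1495 CPM fed at ZT18. Its groups did not overlap there. All 5 isomerases passed at ZT18 and at ZT22, Pdia3 and Pdia4 also at ZT14, where Pdia3 lost its call in 5 settings (adjusted p from 0.0528 to 0.106) and Pdia4 in 1 (0.0551).

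ERAD genes moved in both directions. Syvn1, which encodes the ubiquitin ligase HRD1, rose by 0.78 ± 0.12 (adjusted p = 1.02e-05). Its level was 138, 77.4 and 55.0 CPM unfed and 143, 202 and 119 CPM fed at ZT13, and 72.3, 80.1 and 75.4 against 132, 122 and 138 CPM at ZT14. At ZT18 Syvn1 was at 85.0, 89.8 and 61.9 against 209, 177 and 222 CPM, at ZT22 at 84.1, 83.3 and 130.2 against 96.0, 124 and 121 CPM, and in unfed livers at ZT10 at 51.7, 40.5 and 53.5 CPM. Its fed and unfed libraries were apart at ZT14 and ZT18 and overlapped at ZT13 and ZT22. Its ZT14 call was lost in 8 of 13 settings, each of the 6 that left out 1 ZT14 library among them (adjusted p from 0.0605 to 0.15). Sel1l, the adaptor of HRD1, rose by 0.29 ± 0.06, Derl2, a subunit of the retrotranslocation channel, by 0.35 ± 0.04, and Edem1, which trims mannose from misfolded glycoproteins, by 0.35 ± 0.06. Derl1 (0.08 ± 0.04, adjusted p = 0.0935) and the lectin gene Os9 (-0.08 ± 0.06, adjusted p = 0.264) did not pass at any hour.

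Herpud1, which encodes a membrane protein that assembles the HRD1 complex and is itself induced by ER stress, fell by 0.52 ± 0.13 on the log2 scale over the 4 hours (adjusted p = 0.00186). It was at 1109, 848 and 752 CPM unfed and 737, 864 and 784 CPM fed at ZT13, and at 848, 906 and 839 against 625, 862 and 732 CPM at ZT14. At ZT18 it was at 501, 486 and 589 against 232, 287 and 410.5 CPM and at ZT22 at 220.2, 379.6 and 611 against 174, 294 and 176 CPM. Fed libraries were below all unfed ones at ZT18 and overlapped them at the other hours. The ZT18 difference of -0.76 lost its call in 4 settings that left out libraries, among them unfed replicate 3 (adjusted p from 0.0898 to 0.157). That at ZT22, -0.91, was lost in 4 settings (adjusted p from 0.0617 to 0.182), and without unfed replicate 3 of that hour it was -0.47. Herpud1 was also at 434, 493 and 411 CPM in unfed livers at ZT10, and in unfed livers its group mean was highest at ZT13 and lowest at ZT22.

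Derl3, the third derlin, was the member with the lowest counts, and its values carry the largest counting error. It was at 1.09, 1.13 and 0.743 CPM unfed and 1.19, 2.79 and 0.779 CPM fed at ZT13, at 0.487, 1.35 and 0.455 against 0.872, 0.23 and 1.14 CPM at ZT14, and at 0.61, 2.19 and 0 against 4.33, 2.49 and 4.20 CPM at ZT18. At ZT22 it was at 4.13, 0.812 and 3.00 against 2.47, 1.10 and 1.94 CPM, and at ZT10 at 1.22, 0.721 and 0.972 CPM. Fed libraries stood above unfed ones at ZT18 alone, and the mean over the 4 hours was 0.56 ± 0.37 (adjusted p = 0.264). The ZT18 call (1.97) was lost in 8 settings, DESeq2 among them (adjusted p from 0.0517 to 0.14).

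Of the 3 regulators, Xbp1 rose, Atf6 fell and Ern1 did not pass. Xbp1 was at 176, 182 and 161 CPM unfed and 221, 209.9 and 212 CPM fed at ZT13, at 137, 112 and 152 against 231, 178 and 173 CPM at ZT14, and at 134, 127 and 100.0 against 253, 209.9 and 210.2 CPM at ZT18. At ZT22 it was at 134, 155 and 144 against 200.3, 142 and 169 CPM and at ZT10 at 142, 164 and 229 CPM. Its fed libraries were above the unfed ones at ZT13, ZT14 and ZT18, and the change was 0.50 ± 0.08 (adjusted p = 1.51e-05). Xbp1 had 2 transcript rows, and its values are those of the row with the higher summed count, while the other row was not read. The counts are per transcript row and do not separate spliced from unspliced Xbp1 mRNA, which differ by a short intron.

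Atf6 was at 96.2, 94.5 and 109.9 CPM unfed and 87.7, 93.7 and 105 CPM fed at ZT13, and at 98.0, 97.8 and 104 against 100.1, 99.0 and 91.1 CPM at ZT14. It was at 109.6, 111 and 105 against 59.5, 79.2 and 83.6 CPM at ZT18, at 98.6, 97.7 and 97.5 against 68.8, 89.2 and 90.9 CPM at ZT22, and at 93.7, 79.2 and 81.3 CPM at ZT10. The fed libraries lay below the unfed ones at ZT18 and ZT22, and Atf6 fell by 0.23 ± 0.06 (adjusted p = 0.00197). Ern1 was at 58.2, 62.7 and 47.5 CPM unfed and 55.3, 61.5 and 61.7 CPM fed at ZT13, at 44.8, 43.8 and 46.6 against 51.2, 44.2 and 38.9 CPM at ZT14, and at 80.0, 91.6 and 66.2 against 66.0, 80.4 and 87.6 CPM at ZT18. At ZT22 Ern1 was at 86.4, 57.1 and 63.4 against 92.6, 89.6 and 79.4 CPM, and at ZT10 at 55.5, 48.2 and 67.9 CPM. Its fed and unfed libraries overlapped at all 4 hours, and the mean difference was 0.10 ± 0.08 (adjusted p = 0.349).

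All 5 translocation genes rose. Sec61b, a small subunit of the channel, rose by 0.70 ± 0.07, Sec61a1, its pore, by 0.41 ± 0.05, and Sec63, which couples the channel to BiP, by 0.17 ± 0.04. Ssr1 and Ssr3, subunits of the translocon-associated protein complex, rose by 0.61 ± 0.05 and 0.33 ± 0.05. Sec61b was at 15.4, 17.5 and 13.8 CPM unfed against 32.7, 35.0 and 39.5 CPM fed at ZT22, with no overlap. All 5 passed at ZT22, where Creld2, Hspa5 and Syvn1 did not, though the Sec63 call was lost there in 8 of 13 settings (adjusted p from 0.0545 to 0.116) and at ZT18 in 6. Of the 5, 4 had their largest fed difference there, at 1.20 for Sec61b and 0.90 for Ssr1. The coat proteins parted: Sec23b rose by 0.64 ± 0.06 and passed at ZT14, ZT18 and ZT22, and Sec24d, the cargo-binding subunit, was at -0.09 ± 0.05 (adjusted p = 0.171).

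The fed difference varied with the hour for 13 members (interaction test over the 4 hours, 8.1% of all genes tested passed). These were Hspa5, Hsp90b1, Manf, Sil1, Calr, Pdia3, Pdia4, Erp44, Sel1l, Derl2, Sec61b, Ssr1 and Ssr3. Among them Hspa5 went from 0.66 at ZT13 to 1.67 at ZT18 and 0.41 at ZT22, and Hsp90b1 from 0.30 to 1.27 and 0.59. Calr was at 0.29, 1.14 and 1.01, and Sec61b at 0.06, 1.06 and 1.20 at the same hours. The count of 13 was 8 without fed ZT14 replicate 1 and unfed ZT18 replicate 3, and 21 without unfed ZT13 replicate 3. Fed livers alone differed among their 4 hours for 23 members (37.2% of all genes), and their group mean was highest at ZT18 for 23 members and at ZT22 for 6. Unfed livers differed among their 5 times for 25 members (42.5%), and their mean was highest at ZT13 for 15 and at ZT22 for 10. The tests over fed and over unfed times share no library. Group means were ranked for the members alone, with no share over all genes.

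Members with the stress element in their window showed a median fed difference of 1.27 at ZT18 (range 0.32 to 1.98, all 9 past the threshold, of which Derl3 lost its call in 8 of 13 settings and Dnajc3 in 4), and the 20 with a window and without the element 0.61 (range -0.76 to 2.48, 16 rose and 1 fell). The 7 without a window had a median of 0.39. Averaged over the 4 hours the medians were 0.72 with the element and 0.34 without, and at ZT22 they were 0.41 and 0.42. At ZT18 the first range lay within the second, with Sdf2l1 without the element at the top and Canx and Dnajc3 with it at 0.47 and 0.32. No test was made of this split.

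**Figure D3:**
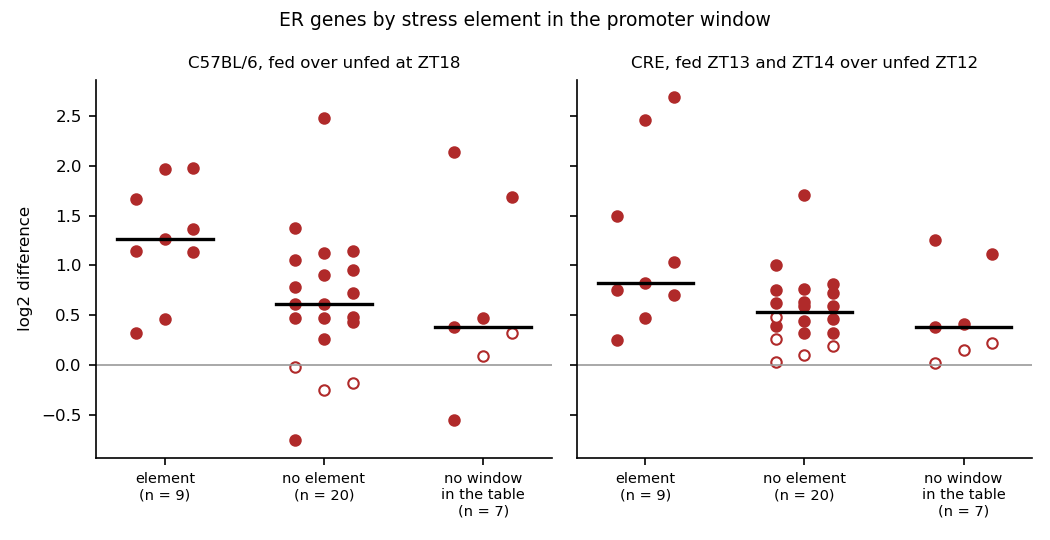
Log2 difference of each of the 36 genes (points, filled past an adjusted p of 0.05) by whether its promoter window held the stress element, did not, or was not in the table, with medians as bars, for fed over unfed C57BL/6 liver at ZT18 (left) and fed ZT13 and ZT14 over unfed ZT12 in CRE liver (right). The medians with and without the element are 1.27 and 0.61 on the left and 0.82 and 0.54 on the right, with overlapping ranges.

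Beyond the 36, other genes of the same organelle were read from 5 further lists, to be set against the 17.5% of all genes that rose and the 17.9% that fell. Of 29 tested genes of translocation, signal peptidase and the oligosaccharyltransferase, 23 rose and 1 fell in the fed average (median 0.32), with Ostc at 0.61 ± 0.05 and Magt1 at 0.61 ± 0.06, both subunits of the transferase. Of 37 other chaperones, oxidoreductases and isomerases, 17 rose and 2 fell (median 0.15), with Txndc5 at 0.49 ± 0.05 and Ppib, cyclophilin B, at 0.52 ± 0.05. Of 36 further coat and cargo receptor genes, 19 rose and 6 fell (median 0.13); Tmed3 rose by 0.91 ± 0.09 and Mia3, which encodes the collagen export factor TANGO1, fell by 0.52 ± 0.05. Of 26 other ERAD genes 3 rose and 6 fell, shares near those of all genes (median -0.03), with Ubxn4 at 0.38 ± 0.04 and Marchf6 at -0.37 ± 0.05. Of 22 genes of other stress sensors and of the ATF4 arm, which PERK feeds, 5 rose and 8 fell (median -0.06), and Sesn2 fell by 1.35 ± 0.09 and Trib3 by 1.24 ± 0.16.

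Endothelial markers moved with food as well: 9 of 10 fell in the fed average (median -0.24), and their summed level was 334 to 448 CPM in unfed and 274 to 384 CPM in fed libraries. Of 8 hepatocyte markers 1 rose and 1 fell, with sums of 71100 to 106000 CPM unfed and 75300 to 116000 CPM fed, and none of 10 Kupffer cell markers passed. Red blood cell markers summed to 42.0 to 91.5 CPM unfed and 53.9 to 106 CPM fed, and fat markers to 14.4 to 32.3 and 9.13 to 27.9 CPM. Plasma and B cell markers summed to 1.18 to 4.43 CPM unfed and 0.81 to 2.85 CPM fed. The part of these shifts in the changes of the 36 genes was not tested.

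Loss of GR in hepatocytes went with a change in few of these genes. Averaged over the 6 times, Derl3, Pdia4 and Hspa13 rose and Herpud1 fell in CRE against GFP livers, 4 of 36 members, while 14.6% of all 15712 genes tested passed (7.92% upward and 6.64% downward), a share near that of the members (11.1%). The median difference was 0.03 for the members and 0.00 for all genes tested, and the 32 members that did not pass lay between -0.14 and 0.19. Hspa5 was at 0.08 ± 0.08 (adjusted p = 0.578), Xbp1 at 0.09 ± 0.08 (adjusted p = 0.512) and Atf6 at -0.07 ± 0.05 (adjusted p = 0.402). By time, no member passed at ZT10 (0.694% of all genes; 4 members at an unadjusted p under 0.05, DESeq2 called 1), and Herpud1 alone, lower, at ZT12 (3.75%, 2.25% downward). Derl3, Syvn1 and Pdia4 were higher and Herpud1 lower at ZT13 (5.04%, 1.89% upward and 3.15% downward), and Sil1 alone was higher at ZT14 (1.57%, 0.586% upward). The Sil1 difference at ZT14, 0.38 ± 0.10, was lost in 9 of 14 settings, each of the 6 that left out 1 ZT14 library among them (adjusted p from 0.0533 to 0.272). None passed at ZT18 (0.102%; 4 unadjusted, DESeq2 0) or ZT22 (0.146%; 9 unadjusted, DESeq2 called 1). Of the hepatocyte markers 5 of 8 were lower in CRE livers (median -0.20), with sums of 38100 to 58700 CPM against 45000 to 68700 CPM in GFP livers. The hepatocyte sums were lower with CRE without overlap at ZT12, ZT13, ZT14 and ZT18, and overlapped at ZT10 and ZT22. At ZT14 they were 40300 to 44200 CPM with CRE and 49100 to 60100 CPM with GFP. Red blood cell markers summed to 58.1 to 89.3 CPM with GFP and 66.0 to 122 CPM with CRE, with no overlap at ZT10, ZT12 and ZT22, and fat markers to 9.49 to 26.0 and 8.27 to 19.4 CPM, with no overlap at ZT10, ZT12 and ZT13. Of the Kupffer, endothelial, stellate and bile duct markers none passed. Kupffer sums did not overlap at ZT14, at 188 to 222 CPM with CRE and 296 to 349 CPM with GFP. Bile duct sums did not overlap at ZT10, at 23.1 to 24.7 CPM with CRE and 11.6 to 21.2 CPM with GFP. At the other times, and for endothelial and stellate sums at every time, the viruses overlapped. The part of these markers in the differences of the 36 genes was not tested.

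Herpud1 showed the clearest difference between the viruses. In unfed livers it was at 275, 331 and 304 CPM with GFP and 173, 187 and 196 CPM with CRE at ZT10, and at 370.0, 549 and 389 against 216, 193 and 214 CPM at ZT12. In fed livers it was at 401, 688 and 480.4 against 229.5, 351 and 378 CPM at ZT13 and at 331, 381 and 387 against 333, 280.4 and 308 CPM at ZT14. Every CRE library was below every GFP library at ZT10, ZT12 and ZT13, and at ZT14 the groups overlapped by 1 library. At ZT18 it was at 134, 209 and 148 against 115, 130.4 and 122 CPM and at ZT22 at 125, 149 and 93.2 against 82.7, 67.8 and 75.7 CPM, again with no overlap. The difference was -0.64 ± 0.08 over the 6 times (adjusted p = 4.66e-07) and held in every setting tried for it, and the 6 times gave, in order, -0.71, -1.07, -0.71, -0.25, -0.42 and -0.70. The single-time calls at ZT12 and ZT13 (adjusted p = 0.000695 and 0.0216) were lost in 1 and 3 settings, at ZT12 in the fit without the libraries over 20% NR_046233, where 1 GFP library was left and the difference was -0.90 (adjusted p = 0.155).

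Derl3, again at low counts, went the other way. It was at 0.818, 0.551 and 0.938 CPM with GFP and 1.95, 4.14 and 2.26 CPM with CRE at ZT13, at 1.22, 0.987 and 1.86 against 2.17, 2.73 and 3.46 CPM at ZT14, and at 2.22, 0.753 and 0.724 against 5.43, 2.58 and 2.59 CPM at ZT18. In unfed livers it was at 0, 0.581 and 0.576 against 0.351, 0.747 and 0.629 CPM at ZT10 and 0.519, 0.582 and 0.863 against 0.315, 0.57 and 0.603 CPM at ZT12, and fed at ZT22 at 0.701, 1.65 and 3.84 against 2.01, 2.33 and 4.35 CPM. CRE libraries were all above GFP libraries at ZT13, ZT14 and ZT18 and overlapped them at ZT10, ZT12 and ZT22. The difference was 0.89 ± 0.24 (adjusted p = 0.0104), and that at ZT13, 1.85 ± 0.54, was lost in 5 settings (adjusted p up to 0.202).

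Pdia4 and Hspa13 differed by less. Pdia4 was at 116, 109.9 and 140.3 CPM with GFP and 141, 141 and 128 CPM with CRE at ZT10, at 119.8, 121 and 120.4 against 143, 140.3 and 141 CPM at ZT12, and at 115, 154 and 179 against 169.9, 265 and 281 CPM at ZT13. At ZT14 it was at 175, 158 and 234 against 228, 238 and 251 CPM, at ZT18 at 246, 208 and 224 against 316, 232 and 255 CPM and at ZT22 at 200.5, 276 and 255 against 204, 209.6 and 211 CPM. The CRE libraries were all above the GFP libraries at ZT12, and the groups overlapped at the other 5 times. The mean difference of Pdia4 was 0.24 ± 0.07 (adjusted p = 0.0115). Without the 6 libraries over 20% NR_046233 its call was lost, with a mean difference of 0.26. That mean leaves out ZT10, where no GFP library remained, and rests on 1 GFP library at ZT12. Its ZT13 difference of 0.68 was lost in 4 of 14 settings (adjusted p from 0.0686 to 0.243). Hspa13 was at 17.0, 19.0 and 19.6 against 23.5, 24.6 and 25.9 CPM at ZT10, at 21.3, 21.1 and 18.9 against 25.1, 27.6 and 25.1 CPM at ZT12 and at 20.0, 25.9 and 25.4 against 20.1, 30.1 and 32.5 CPM at ZT13. It was at 36.3, 28.3 and 43.8 against 47.8, 38.7 and 37.9 CPM at ZT14, at 31.2, 25 and 27.6 against 42.2, 33.0 and 32.2 CPM at ZT18 and at 25.1, 28.6 and 23.2 against 19.0, 19.1 and 23.6 CPM at ZT22. CRE libraries were above GFP libraries at ZT10, ZT12 and ZT18 and at ZT22 2 of 3 CRE libraries were below every GFP library. Its mean difference, 0.20 ± 0.06 (adjusted p = 0.0274), did not hold in 10 of 43 settings (adjusted p from 0.0506 to 0.193).

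**Figure D4:**
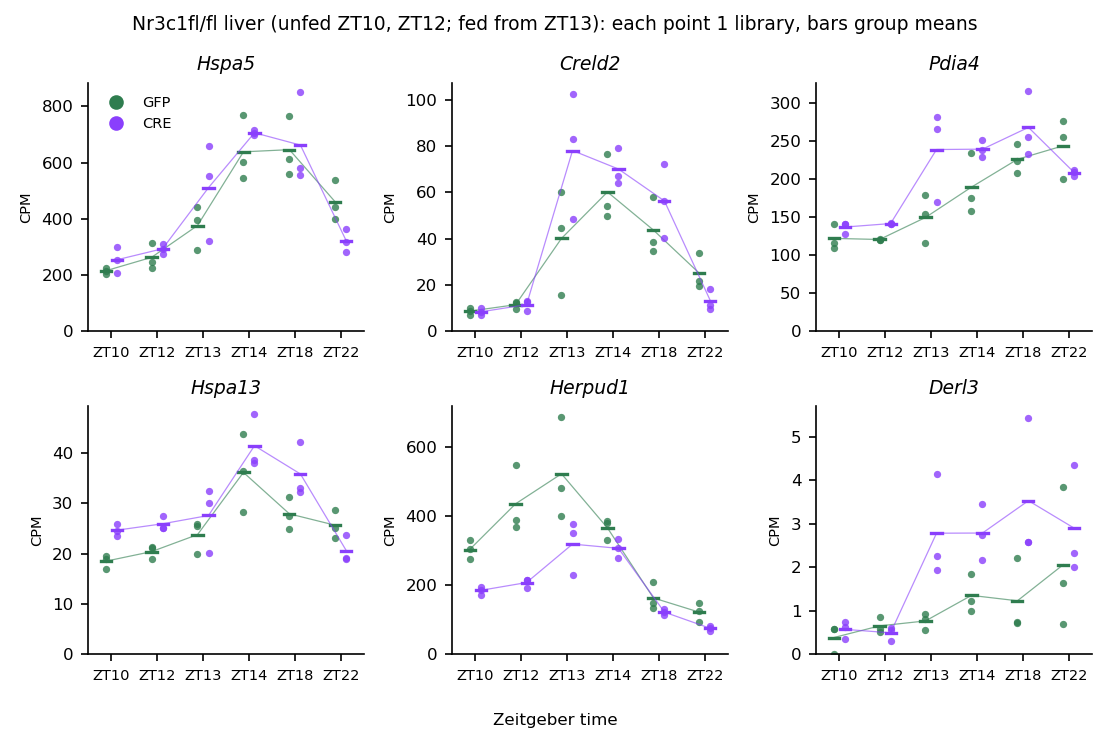
CPM in each Nr3c1fl/fl library (points) with group means (bars, joined by thin lines) for 6 genes, GFP in green and CRE in purple, against Zeitgeber time, unfed at ZT10 and ZT12 and fed from ZT13. Herpud1 is lower with CRE at ZT10, ZT12, ZT13, ZT18 and ZT22, and Derl3 is higher with CRE at ZT13, ZT14 and ZT18.

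Most CRE differences were above 0 at ZT13 and below 0 at ZT22, and few of them passed. At ZT13 34 of the 36 differences were above 0 (median 0.25, all genes 0.00) and at ZT22 34 were below 0 (median -0.19, all genes -0.01). Creld2 was at 0.96 ± 0.32 at ZT13 (adjusted p = 0.086) and -0.94 ± 0.34 at ZT22 (adjusted p = 0.285), Hspa5 at 0.44 and -0.52, Hyou1 at 0.50 and -0.59, and Manf at 0.62 and -0.54. Creld2 was at 15.7, 44.5 and 60.0 CPM with GFP and 48.6, 102 and 83.0 CPM with CRE at ZT13, and at 19.3, 33.9 and 21.8 against 18.2, 11.4 and 9.70 CPM at ZT22. The groups overlapped at ZT13, where replicate 1 was the lowest library of either virus, and were apart at ZT22. Syvn1, whose ZT13 difference of 0.92 ± 0.19 passed (adjusted p = 0.00282; 0.153 in a fit of the ZT13 groups alone, where no member passed), was at -0.44 at ZT22. The test of whether the CRE difference varied among the 6 times called none of the 36 (0.687% of all genes; 10 members at an unadjusted p under 0.05, and DESeq2 called 2). GFP replicate 1 at ZT13 was the lowest of its 3 libraries for 30 members and CRE replicate 1 at ZT13 for 32. GFP replicate 2 at ZT22 was the highest of its 3 libraries for 30 members. Without a single ZT13 library the number of members called at ZT13 ranged from 2 (leaving out either of GFP replicates 1 and 2, or of CRE replicates 2 and 3) to 7 (without GFP replicate 3) and 8 (without CRE replicate 1).

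GR binding had been mapped by ChIP-seq in unfed liver at ZT10. The authors deposited 3 lists: 1 named as concordant between replicates, with 5772 peaks, 1 against input and 1 against chromatin of CRE livers, and all 5772 concordant peaks have the coordinates of a peak in the list against CRE chromatin. A concordant peak lay within 25 kb of the gene interval for 15 of 36 members (41.7%), against 29.4% of 14744 genes, and within 100 kb for 55.6% against 53.8%. The list against input gave 66.7% against 63.3% within 25 kb, and that against CRE chromatin 86.1% against 71.9%. A concordant peak lay inside the gene interval for 6 members, Hyou1, Sil1, Dnajc3, Derl2, Atf6 and Ern1 (16.7%), and for 14.1% of all genes. Herpud1 had a pair of concordant peaks, chr8:94377627-94377835 and chr8:94364094-94364302 (mm10), centred at -8.7 and -22.23 kb from its start and outside the gene. Pdia4, Hspa13 and Derl3 had no concordant peak within 25 kb, Creld2 had a pair centred 12.03 and 31.03 kb after its start, Syvn1 1 at -10.48 kb, and Xbp1 a pair at -14.62 and -18.13 kb. These shares are counts without a test, and binding in fed liver was not analysed here.

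In Nr3c1fl/fl livers the first hours with food were compared with ZT12, the last unfed time. With GFP, 15 members rose and none fell in fed ZT13 and ZT14 livers against unfed ZT12 livers (9.73% of all genes passed; 5.23% rose), and with CRE 28 rose and none fell (17.5%; 9.58% rose). The medians of the members were 0.32 with GFP and 0.59 with CRE, and those of all genes 0.01 and -0.03. The counts share no library. In the fed C57BL/6 average 14 of the 15 (93.3%) and 24 of the 28 (85.7%) also rose. In that average 28 of all 36 members (77.8%) and 17.5% of all genes tested rose, and the overlap was not tested. With GFP the largest differences were those of Creld2 (2.10 ± 0.32), Manf (1.37 ± 0.21), Hyou1 (1.08 ± 0.16) and Syvn1 (1.05 ± 0.18). With CRE they were those of Creld2 (2.69 ± 0.32), Derl3 (2.46 ± 0.52), Sdf2l1 (1.71 ± 0.22) and Syvn1 (1.50 ± 0.18). Herpud1 rose by 0.59 ± 0.17 with CRE, a call lost without CRE ZT12 replicate 2 (0.55, adjusted p = 0.0862), and did not pass with GFP.

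The difference between the viruses in this early change did not pass for any member (0.0382% of all genes passed; 4 members at an unadjusted p under 0.05, DESeq2 0). It was 1.89 ± 0.72 for Derl3, 0.75 ± 0.30 for Sdf2l1, 0.58 ± 0.23 for Herpud1 and 0.52 ± 0.21 for Dnajc3, the 4 with an unadjusted p under 0.05, at adjusted p-values of 0.874 to 0.885. The difference was above 0 for 32 of the 36. The counts of 15 and 28 therefore do not show that the viruses differed. Without the 6 libraries over 20% NR_046233, which leaves 1 GFP library at ZT12, 2 members passed with GFP, Hyou1 and Syvn1, while Creld2 was at 2.00, Manf at 1.34, Hspa5 at 1.13 and Sdf2l1 at 0.68. Without GFP ZT12 replicate 3, which is not among those 6 libraries, 9 passed. The part of the precursor in these counts was not tested. Among the fed GFP libraries, ZT14 replicate 3 was the highest of its 3 for 32 members.

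**Figure D5:**
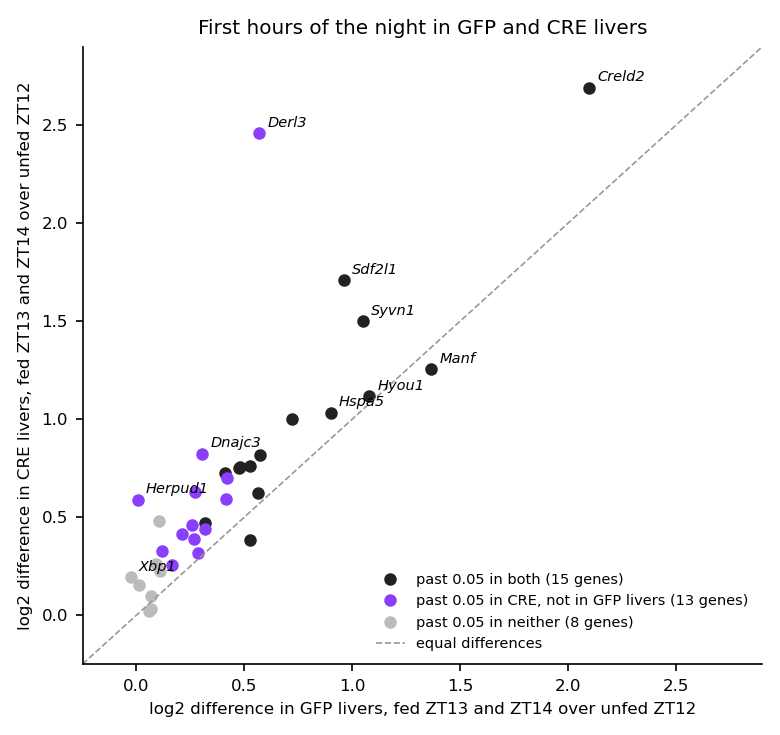
Log2 difference of fed ZT13 and ZT14 over unfed ZT12 livers in CRE (vertical axis) against GFP livers (horizontal axis) for the 36 genes (points, black past an adjusted p of 0.05 with both viruses, purple with CRE and not GFP, grey with neither), with the line of equal differences dashed. Most points lie above the line, with Derl3 farthest from it, and no difference between the viruses passed an adjusted p of 0.05.

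Over all 6 times, 27 members differed among times in GFP livers (46.9% of all genes) and 33 in CRE livers (41.5%). The highest group mean was at ZT14 for 18 members with GFP and for 19 with CRE. At ZT22 it was highest for 10 members with GFP and for 1 with CRE, and at ZT13 for 1 and 8. These counts include members that did not differ among times, and no share over all genes was taken. The test of virus by time called none of the 36 (0.687% of all genes). GFP replicate 2 at ZT22 was the highest of its 3 libraries for 30 members. Hspa5 was at 248, 315 and 226 CPM with GFP and 311, 275 and 294 CPM with CRE at ZT12, at 601, 545 and 769 against 706, 697 and 716 CPM at ZT14, and at 443, 538 and 398 against 364, 316 and 282 CPM at ZT22. Its libraries overlapped between the viruses at ZT12 and ZT14, and at ZT22 each CRE library was below each GFP library, a difference of -0.52 ± 0.20 (adjusted p = 0.328). Sdf2l1 was at 6.22, 5.24 and 8.19 CPM with GFP and 5.67, 5.46 and 5.19 CPM with CRE at ZT12, at 13.9, 17.4 and 19.9 against 17.7, 19.7 and 21.3 CPM at ZT14 and at 27.9, 20.3 and 21.4 against 28.4, 23.3 and 23.8 CPM at ZT18. All its fed libraries at ZT14 and ZT18 were above its ZT12 libraries with either virus, and the viruses overlapped at each of these times. At ZT13 each CRE library of Sdf2l1 was above each GFP library, and the difference did not pass. Xbp1 ranged over 94.8 to 168 CPM in GFP and 82.7 to 196 CPM in CRE libraries, Atf6 over 128 to 214 and 112 to 222 CPM, and Ern1 over 128 to 265 and 107 to 252 CPM. Neither Xbp1, Atf6 nor Ern1 passed in the early comparison with either virus.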

How the data were processed

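RNA was sequenced from 27 C57BL/6 and 36 Nr3c1fl/fl livers (3 libraries a group), and the authors deposited 1 table of raw counts per experiment, with a RefSeq transcript in each row. The submitters' processing notes name STAR, HOMER, DESeq2, mm10 and rn5, without versions or roles. The sources used here do not state whether counting used the strand. Most counts were even (75.72 to 85.07% of values), and halved counts were tried as an alternative. Of 40458 rows, 40219 matched 24790 genes by RefSeq accession in the GRCm38.p6 table. For each gene, the row with the highest summed count over both tables was kept (16 of the 36 genes had several rows). Rows that named no gene, up to 28.643% of the counts of a library, were left out of the totals behind CPM and of tests. The further rows of a gene and the genes that did not pass the filter were left out of them too.

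Groups were taken from the labels. Genes were filtered with filterByExpr and fitted with edgeR 4.0.16 (quasi-likelihood test, TMM factors, all groups of an experiment in 1 fit, R 4.3.3), with Benjamini-Hochberg adjustment over all genes tested and a threshold of 0.05. Standard errors were computed as the size of the log2 fold change over the square root of its F statistic. The code was tested on simulated data. Alternatives were DESeq2 1.42.0, RLE factors, no filter, fits of only the groups compared, the share of NR_046233 as a covariate, libraries left out, and the replicate numbers as a block. The deposited GR peak lists, for which the authors give a position per peak, were compared by distance from each gene, with starts read as 0-based. Tables were handled in Python 3.11.15 with pandas 2.3.3 and plotted with matplotlib 3.10.9.

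The members and the lists were chosen with earlier results of these data known. Values in single libraries are given for the 6 members with the largest fed change and the 4 with the largest CRE change among those past the threshold, and for Hspa5, Xbp1, Atf6 and Ern1. They are not given for every group of both experiments. Outside the members, Nr3c1 and up to 2 genes per list with the smallest p in the fed average are named. Values of Calr, P4hb and Sec61b in single groups were added after they were seen. The rat hepatocyte table, whose identifiers are not paired with names, was not used.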

Additional observations from a re-analysis of the deposited data

Results flagged for a closer look

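Of the 36 genes, 13 were picked out because their fed difference in C57BL/6 livers was not the same at the 4 hours by the interaction test (edgeR, adjusted over all genes tested). The adjusted p was 0.00159 for Sec61b, 0.00213 for Hsp90b1, 0.00699 for Erp44, 0.0102 for Pdia3, 0.013 for Manf, 0.0151 for Hspa5, 0.016 for Ssr3 and 0.0163 for Calr. It was 0.0175 for Ssr1, 0.0201 for Derl2, 0.0279 for Pdia4, 0.0352 for Sel1l and 0.0401 for Sil1. Without unfed ZT18 replicate 3, the library with pancreatic markers, and fed ZT14 replicate 1, 8 members passed this test, and without unfed ZT13 replicate 3 alone 21 passed.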

How the results depend on the processing

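The 30 members called in the fed average kept their calls under every alternative run. Of 435 recomputed counts of members, 386 were within 1.5 times the main count and 49 were not. Values of single members were followed for the fed average, for differences past the threshold and for some others printed here. Of these 3697 recomputed values none turned its direction, 208 lost and 41 gained a call. Other differences that did not pass were not among them, so these numbers do not describe all members and comparisons. For fed against unfed at ZT13 (0 members) DESeq2 called 4, no filter 3, halved counts 2, the fit without fed ZT14 replicate 1 and unfed ZT18 replicate 3 called 2, and the replicate block 1. Without these 2 libraries feeding by hour gave 8 in place of 13. With only the groups compared in the fit, ZT14 gave 20 in place of 13, CRE against GFP gave 1 at ZT10, 3 at ZT12, 0 at ZT13 and 0 at ZT14 in place of 0, 1, 4 and 1, and early feeding with GFP gave 6 in place of 15. DESeq2 called 1 at ZT10, 1 at ZT22 and 2 for virus by time, where the main counts were 0, no filter gave 0 at ZT14 and 1 for virus by time, and the replicate block gave 1 at ZT10. Without the libraries over 20% NR_046233, no GFP library remained at ZT10 (no value there), the CRE average gave 2, ZT12 0, ZT14 0, GFP times 16 in place of 27, and early feeding with GFP 2. GR peaks were counted for 6 members within the gene, 24 with the list against input and 31 with the list against CRE chromatin, in place of 15, where 14.1%, 63.3%, 71.9% and 29.4% of all genes had one. Leaving out 1 library at a time gave 30 to 31 members for the fed average, 0 to 9 at ZT13 (9 without unfed replicate 1), 5 to 10 at ZT14 (5 without unfed replicate 1 or 2, 8 without fed replicate 1), 27 to 32 at ZT18, 17 to 22 at ZT22, 10 to 21 by hour (21 without unfed ZT13 replicate 3), 19 to 26 over unfed and 18 to 22 over fed times. For CRE against GFP it gave 3 to 6 for the average, 0 to 0 at ZT10, ZT18 and ZT22, 1 to 1 at ZT12, 2 to 8 at ZT13 (8 without CRE replicate 1), 0 to 0 at ZT14 and 0 to 1 for virus by time. It gave 24 to 30 over GFP and 32 to 33 over CRE times, 9 to 20 for early feeding with GFP (9 without GFP ZT12 replicate 3), 22 to 29 with CRE and 0 to 0 for their difference. The causes of these shifts were not tested. Replicate numbers did not pair the libraries: deviations of same-numbered libraries correlated at -0.042 to 0.077 in C57BL/6 and -0.14 to 0.127 in Nr3c1fl/fl livers, and the block changed only the counts given above by over 1.5 times.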
